A study of Bos taurus with 18 samples.

Results

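The 10 collagen genes described here encode the chains of collagen I (COL1A1, COL1A2), collagen III (COL3A1), collagen V (COL5A1, COL5A2, COL5A3), collagen VI (COL6A1, COL6A2, COL6A3) and collagen XII (COL12A1), which fibroblasts and related connective tissue cells secrete. They were taken by gene symbol, and all 10 were present among the 16989 gene symbols counted in each library. The study sequenced polyadenylated RNA of bovine mesenchymal stem cells (MSCs) from the bone marrow of juvenile cows. There were 17 clones, lettered A to Q, each of which had grown from a single cell, and 1 heterogeneous population that had not been cloned. The cells carried no introduced allele and were kept in monolayer in basal media (DMEM supplemented with FBS and antibiotics), without chondrogenic induction, to passage 1. Each population was sequenced once, so the spread between clones holds both differences between clones and any variation in preparation, and clones next to each other in an order of levels cannot be told apart. How many animals the clones came from is not given in the sources used here.

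Collagen I is the main fibril-forming collagen of bone, tendon and skin and is a trimer of COL1A1 and COL1A2 chains, while collagen III is a trimer of COL3A1 alone that joins the same fibrils. Collagen V lies inside these fibrils and controls how they nucleate and how thick they grow, collagen XII sits on their surface, and collagen VI forms beaded filaments around cells. The chains are hydroxylated and folded in the endoplasmic reticulum with the help of prolyl and lysyl hydroxylases and the chaperone SERPINH1, and are trimmed and crosslinked outside the cell. MSCs spread on plastic are known to make these collagens, whereas cells that become chondrocytes turn to collagen II.

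Reads on genes ranged from 11484812 (clone D) to 18458157 (clone M) per clone, with a median of 14193790, and came to 16092501 in the heterogeneous library. Levels are given as CPM, the reads of a gene scaled to the same total of reads on genes in every library after TMM scaling, the edgeR factor that brings the bulk of genes of each library to the same level. Gene length did not enter, so levels are compared between libraries and not between genes. Of all reads in a file, 18.8% (clone A) to 26.8% (clone N) lay outside genes. All 11 MSC surface genes looked at were detected, with a summed level of 3181 to 5289 CPM in the clones and 3671 CPM in the heterogeneous library, although VCAM1 was low and LEPR reached at most 0.128 CPM in a clone. Of 20 macrophage genes, 18 were detected, and they summed to 16.8 to 96.9 CPM in the clones and 326 CPM in the heterogeneous library. In the clones CTSS was at 11.8 to 83.8 CPM and LAPTM5 at 1.07 to 28.6 CPM, and no other macrophage gene passed 3.18 CPM. The 12 endothelial genes summed to 19.3 to 76.6 CPM in the clones and 27.6 CPM in the heterogeneous library, and 4 of them (CDH5, ESAM, CLDN5 and ROBO4) had 0 reads in every library. Most of that sum in the clones was ERG, at 13.7 to 71.2 CPM, and no other endothelial gene passed 5.94 CPM in a clone.

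The 10 genes took a large and variable share of the transcriptome. In clone N they held 6.99% of the reads on genes (963202 reads, 95% Wilson interval 6.98% to 7.01%), in the median clone 12.9%, and in clone M 20.6% (3807372 reads, interval 20.6% to 20.6%). The heterogeneous library, at 21.2% (3403987 reads, interval 21.1% to 21.2%), was above all 17 clones. In bulk RNA, fewer cells that make a transcript and less of it per cell cannot be told apart. The intervals cover counting error only, and the differences between libraries were far larger than that error. Most of the share was collagen I, which went from 3.37% of reads in clone N through a median of 9.17% to 15.4% in clone F, with 16.1% in the heterogeneous library. Collagen III ran from 0.331% in clone N to 3.10% in clone M, and collagen V from 0.301% in clone N to 0.845% in clone Q. Collagen VI held the steadiest share, between 1.51% (clone K) and 2.67% (clone P). Collagen XII was the exception to the order of the clones: its share was highest in clone N, at 0.998%, and lowest in clone M, at 0.0851%.

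**Figure D1:**
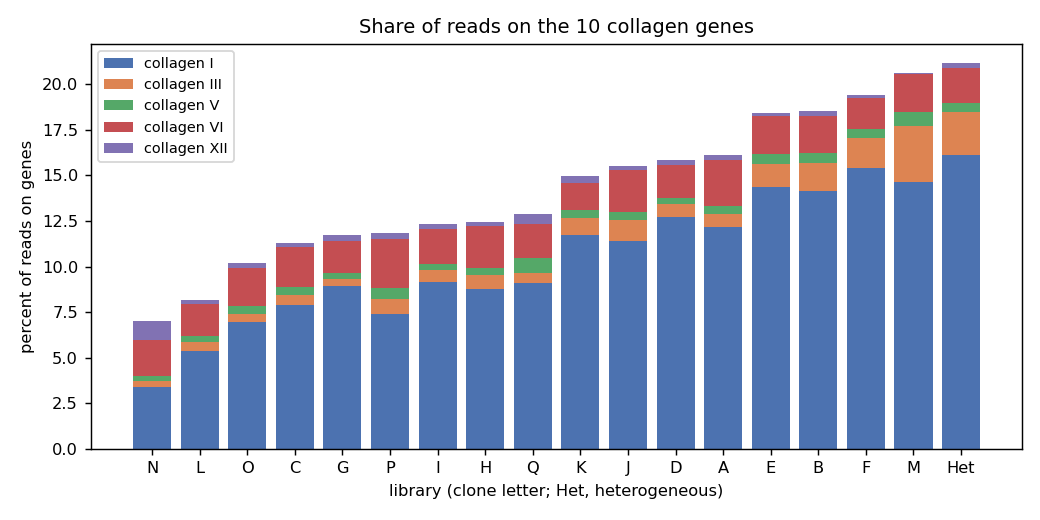
Stacked bars give the percent of reads on genes (y axis) that fell on collagens I, III, V, VI and XII in each of the 18 libraries (x axis), ordered by their sum from 6.99% in clone N to 21.2% in the heterogeneous library. The collagen I part grows along the order from 3.37% to 16.1%, while the collagen VI part stays between 1.51% and 2.67%.

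Both chains of collagen I were among the more variable genes of the clones. COL1A1, the chain present in the larger number per molecule, was at 13407 CPM in clone N, 56169 CPM in the median clone and 102788 CPM in clone F, a range of 7.67-fold, and at 113588 CPM in the heterogeneous library. COL1A2, its partner chain, was at 16246 CPM in clone N, 43552 CPM in the median clone and 75215 CPM in clone M, a range of 4.63-fold, and at 56607 CPM in the heterogeneous library. Clones N and L were lowest for both chains, and clones B, E, F and M were at the top of both. The SD over the 17 clones was 0.77 log2 units for COL1A1 and 0.63 for COL1A2, larger than for 90.8% and 86.1% of the 10350 genes that passed the filter on low counts. All 10 collagen genes passed that filter, and their median SD was 0.60 log2 units against 0.30 over all genes that passed.

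COL3A1, the only chain of collagen III, spread further than either chain of collagen I. It was at 2912 CPM in clone N, 7474 CPM in the median clone and 34795 CPM in clone M, a range of 11.9-fold, and at 24848 CPM in the heterogeneous library. Clone M stood well apart from the next clone, F, at 18409.9 CPM. Its SD was 0.95 log2 units, larger than for 94.5% of genes.

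The chains of collagen V did not share an order of clones. COL5A1, which nearly every collagen V molecule contains, was at 116 CPM in clone N, 399 CPM in the median clone and 638 CPM in clone M, a range of 5.52-fold (SD 0.58 log2 units), and at 339 CPM in the heterogeneous library. COL5A2, its usual partner, was at 2518 CPM in clone L, 3809 CPM in the median clone and 7886 CPM in clone Q, a range of 3.13-fold (SD 0.51), and at 5195 CPM in the heterogeneous library. Clone Q was thus highest for COL5A2, while its COL5A1, at 274 CPM, was below the median clone. COL5A3, the chain of a rarer form of collagen V, was measured from few reads: clone L had 7 (0.431 CPM, exact 95% Poisson interval 2.81 to 14.4 reads), the median clone was at 5.84 CPM and clone J had 271 (19.7 CPM). The heterogeneous library had 602 reads of COL5A3, or 39.5 CPM, above every clone. Its SD over the clones, 1.19 log2 units, was larger than for 97.3% of genes, and the 45.7-fold range between clones L and J rests on the 7 reads of clone L.

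The collagen VI chains had the smallest SDs of the 10 genes, with COL6A1 and COL6A2 near or below the median of all genes and COL6A3 above it. COL6A1 was at 7053 CPM in clone K, 9497 CPM in the median clone and 13474 CPM in clone A, a range of 1.91-fold (SD 0.26 log2 units, larger than for 39.8% of genes). COL6A2 was at 3899 CPM in clone Q, 5519 CPM in the median clone and 8229.9 CPM in clone A, a range of 2.11-fold (SD 0.30, 50.1% of genes). COL6A3, the long chain of the molecule, was at 3365 CPM in clone I, 5179 CPM in the median clone and 7576 CPM in clone M, a range of 2.25-fold (SD 0.36, 62.9% of genes). Clone A was highest for the first 2 chains and clone M for the third. In the heterogeneous library the levels were 8389 CPM for COL6A1, 5082 CPM for COL6A2 and 6954 CPM for COL6A3, all within the range of the clones.

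COL12A1, the chain of collagen XII, ran against COL1A2, COL3A1 and COL5A1 at its extremes, clones M and N. It was at 954 CPM in clone M, 2501 CPM in the median clone and 8775 CPM in clone N, a range of 9.19-fold (SD 0.68 log2 units, larger than for 88.2% of genes), and at 2479.6 CPM in the heterogeneous library. Clones N and Q, the latter at 5385 CPM, lay above the other 15 clones, of which the highest, clone K, was at 3540.4 CPM. Clone Q was also the highest for COL5A2, so it did not run against that gene.

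**Figure D2:**
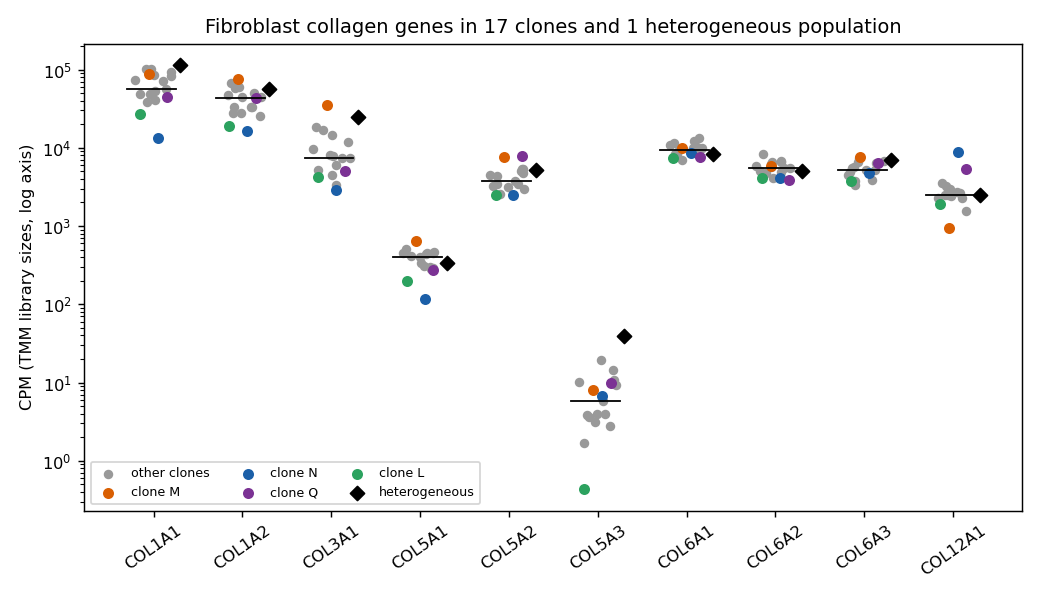
Each point is 1 library, with the gene on the x axis and its CPM on a logarithmic y axis, where black lines mark the median of the 17 clones, diamonds the heterogeneous library, and clones L, M, N and Q are coloured. Clone N is lowest for COL1A1, COL1A2, COL3A1 and COL5A1 and highest for COL12A1, clone M is the reverse for COL3A1 and COL12A1, and the 3 collagen VI genes are the tightest.

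Ratios of reads between chains do not depend on how a library was scaled, and they showed which chains kept step. The ratio of COL6A1 to COL6A2 reads was 1.54 in clone E, 1.71 in the median clone and 2.09 in clone N, with an SD of 0.11 log2 units, below the SD of either gene alone. The third chain of collagen VI was not held as closely. The ratio of COL6A1 to COL6A3 was 1.17 in clone Q, 1.84 in the median clone and 2.81 in clone I. Its SD of 0.32 lay between those of COL6A1 (0.26) and COL6A3 (0.36). The ratio of COL1A1 to COL1A2 was 0.825 in clone N, 1.61 in the median clone and 2.04 in clone G (SD 0.33). It was low in clones N, Q (1.02), P (1.15) and M (1.18), and between 1.44 and 2.04 in the other 13, so the chains of collagen I were not counted in a fixed proportion in every clone. The ratio of COL5A2 to COL5A1 went from 7.45 in clone C through a median of 10.7 to 28.8 in clone Q (SD 0.55), about as wide as the genes themselves. Between collagens the ratios moved more. The ratio of COL3A1 to COL1A1 was 0.0602 in clone G, 0.142 in the median clone and 0.393 in clone M (SD 0.61), and that of COL12A1 to COL1A1 was 0.0108 in clone M, 0.0493 in the median clone and 0.654 in clone N, a range of 60.8-fold (SD 1.30). Because genes differ in length and in where reads fall, these ratios compare libraries and are not ratios of molecules.

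Setting the heterogeneous library beside the 17 clones asked whether the mixed cells differed from populations grown from 1 cell. None of the collagen genes was called (0 of 10 in edgeR's quasi-likelihood test at an adjusted p under 0.05, against 1.25% of the 11878 genes tested, nearly all of them higher and 0.00842% lower, and 0 of 10 with DESeq2). At an unadjusted p under 0.05 both tools had 1 of the 10 genes, where 7.75% of all genes had such a p in edgeR and 9.25% in DESeq2. It was COL5A3, which was 2.51 log2 units higher in the heterogeneous library (SE 0.81, edgeR p = 0.00606, adjusted p = 0.294; DESeq2 adjusted p = 0.369). COL1A1 was 0.85 log2 units higher (SE 0.65, edgeR adjusted p = 0.747) and COL3A1 1.33 higher (SE 0.83, adjusted p = 0.702). The level in the heterogeneous library was above all 17 clones for COL1A1 and COL5A3, 2 of 10 genes, and below all clones for 0 of 10, against 9.64% and 9.18% of all genes tested. The other 8 genes lay inside the range of the clones. The heterogeneous group is a single library that the test assumes to vary as the clones do. In this comparison a gene could pass the filter on low counts through 1 library alone, the heterogeneous one included. Genes nearly absent from the clones could enter that way, which favours calls of higher over lower genes. Macrophage genes were higher in the heterogeneous library. CD163 was counted 667 times there and no more than 12 times in any clone. CD68, a lysosomal macrophage marker, was 4.43 log2 units higher (SE 0.29). The part of such cells in the collagen values was not tested.

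Each clone was then set against the other 16, which asks whether a single clone stood apart in a collagen gene. In edgeR's test 0 of 170 combinations of gene and clone were called, where the share of all genes called was 0.638% in clone N, 0.034% in clone M and 0% in the other 15 clones. No second tool was run for this comparison. At an unadjusted p under 0.05 there were 10 of 170 combinations, in a setting where 4.41% of all combinations of gene and clone had such a p. Of these 10, 4 were in clone N, where 16.4% of all genes had such a p. In that clone COL1A1 was lower than in the others (a log2 difference of -2.3, SE 0.71, adjusted p = 0.135), COL5A1 was lower (-1.74, SE 0.48, adjusted p = 0.0969), COL1A2 was lower (-1.41, SE 0.64, adjusted p = 0.282), and COL12A1 was higher (1.73, SE 0.43, adjusted p = 0.0779, edgeR). Another 3 were in clone M, where 3.86% of all genes had such a p: COL3A1 was higher (2.07, SE 0.62, adjusted p = 0.776), COL5A2 was higher (0.92, SE 0.43, adjusted p = 0.989) and COL12A1 was lower (-1.72, SE 0.73, adjusted p = 0.989, edgeR). The last 3 were COL6A2 in clone A (0.62, SE 0.28, adjusted p = 0.992), COL5A2 in clone Q (0.96, SE 0.42, adjusted p = 0.754) and COL5A3 in clone L (-4.07, SE 1.35, adjusted p = 0.586, edgeR). These are values of single libraries, assumed to vary as the others. Clone N was also the library with the largest share of reads outside genes (26.8%, followed by clone L with 24.8%), and the part of this in its collagen values was not tested. With library totals in place of TMM, the median difference of all genes from the other clones was 0.16 log2 units in clone N, -0.16 in clone M and 0.23 in clone L (-0.03, 0.02 and 0.01 with TMM), and COL12A1 in clone N was then called (1.91, adjusted p = 0.0497, edgeR).

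Genes whose chains go into the same molecule or fibril were compared in pairs across the 17 clones, on log2(CPM + 0.25). Of the 45 pairs that 10 genes can form, 37 had a positive Pearson r and 20 had a permutation p under 0.05. A set of 10 pairs held chains of the same molecule, and COL1A1 with COL3A1, COL5A1 and COL12A1 of its fibril. Other pairs of that fibril, such as COL1A2 with COL3A1, were left out of this set. Of the 10 pairs, 9 had a positive r and 7 a permutation p under 0.05. These 7 include COL1A1 with COL12A1, whose r was negative. In edgeR, where each gene was also fitted as a slope on the log2 CPM of the first gene of a pair with adjustment over all genes, 14 of the 45 pairs passed. All values come from the same clones, so the pairs are not independent of each other. In edgeR, 35.2% of all genes had an unadjusted p under 0.05 on COL1A1, 23% on COL5A1 and 23.3% on COL5A2. On COL6A1 and COL6A2 the shares were 8.7% and 15.1%, and no share was computed for the permutation p. How often a gene passes depends on the gene it is fitted on: 20.3% of 10349 genes had a called slope on COL1A1, 27.4% on COL1A2, 17% on COL3A1, 7.02% on COL5A1, 3.68% on COL5A2, 0.454% on COL6A3, 1.99% on COL12A1, 0.058% on COL6A2 and 0% on COL5A3 and on COL6A1.

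The 2 chains of collagen I rose and fell together. Their Pearson r was 0.910 (permutation p = 1e-05, the smallest that 100000 resamples give; Spearman rho = 0.904, p = 2e-05), and 0.858 without clones L and N, the libraries farthest from the median of COL1A1. COL1A2 rose by 0.73 log2 units per log2 unit of COL1A1 (SE 0.10, edgeR adjusted p = 0.000151), and it ranked 22 among 10349 genes by their r with COL1A1. COL3A1 followed COL1A1 with r = 0.767 (permutation p = 0.00035, rho = 0.809, p = 0.00017, r = 0.734 without L and N) and a slope of 1.0 (SE 0.20, edgeR adjusted p = 0.00211), at rank 440. Its tie to COL1A2 was closer, with r = 0.892 (permutation p = 2e-05, rho = 0.909, p = 1e-05, r = 0.886 without L and N), a slope of 1.38 (SE 0.16, edgeR adjusted p = 5.7e-05) and rank 37. Both relations of COL1A1, with COL1A2 and with COL3A1, kept their size with clones M and N left out (r = 0.906 and 0.778).

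Collagen V was split. COL5A1 followed COL1A1 with r = 0.802 (permutation p = 0.00037, rho = 0.578, p = 0.0157) and a slope of 0.60 (SE 0.13, edgeR adjusted p = 0.00323), at rank 277, but without clones L and N the r was 0.439 (permutation p = 0.101), so the relation rests in good part on those libraries. COL5A1 with its own partner COL5A2 gave r = 0.497 (permutation p = 0.0414, rho = 0.353, p = 0.167) and an edgeR adjusted p of 0.225, at rank 1256 by r with COL5A1, with r = 0.2 when clones M and N were left out. COL5A2 instead lay closest to COL6A3, a chain of collagen VI, with r = 0.835 (permutation p = 4e-05, rho = 0.870, p = 2e-05, r = 0.837 without M and Q) and a slope of COL6A3 on COL5A2 of 0.59 (SE 0.12, edgeR adjusted p = 0.0174). COL6A3 ranked 17 among 10349 genes by r with COL5A2, and without clones M and N the r was 0.829 (slope 0.66, adjusted p = 0.0215). With library totals in place of TMM edgeR called 0 of 9 members on COL5A2, with 3 at an unadjusted p under 0.05, where TMM had given 3 calls. Of all genes 1.11% were then called on COL5A2 and 25.4% had an unadjusted p under 0.05. COL5A2 also rose with COL1A2 (r = 0.742, permutation p = 0.00077, rho = 0.713, p = 0.00193, r = 0.638 without L and N, edgeR adjusted p = 0.00437). COL5A3 did not pass with any of the other 9 genes: its r ran from 0.0858 with COL1A1 to 0.414 with COL5A2, and edgeR called 0 of 9 members on it, with 0 at an unadjusted p under 0.05.

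COL6A1 and COL6A2 were the closest of all 45 pairs. Their r was 0.937 (permutation p = 1e-05, rho = 0.936, p = 1e-05, r = 0.904 without clones A and K), and COL6A2 ranked 1 among 10349 genes by r with COL6A1. COL6A2 rose by 1.06 log2 units per log2 unit of COL6A1 (SE 0.17), but edgeR's adjusted p was 0.0932, and 0.0602 with the roles exchanged. The genes lie side by side, with 0 protein-coding genes between them in the RefSeq gene table of assembly ARS-UCD2.0, which is not the build the authors used. The other neighbouring pair, COL3A1 and COL5A2, also with 0 genes between them, had r = 0.665 (permutation p = 0.00363, rho = 0.694, p = 0.00267, r = 0.466 without M and N). COL6A3, which lies apart from both, gave r = 0.500 with COL6A1 (permutation p = 0.0416, rho = 0.507, p = 0.04, r = 0.387 without A and K, edgeR adjusted p = 0.573) and r = 0.448 with COL6A2 (permutation p = 0.0708, rho = 0.475, p = 0.0554, r = 0.574 without A and Q, edgeR adjusted p = 0.398).

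**Figure D3:**
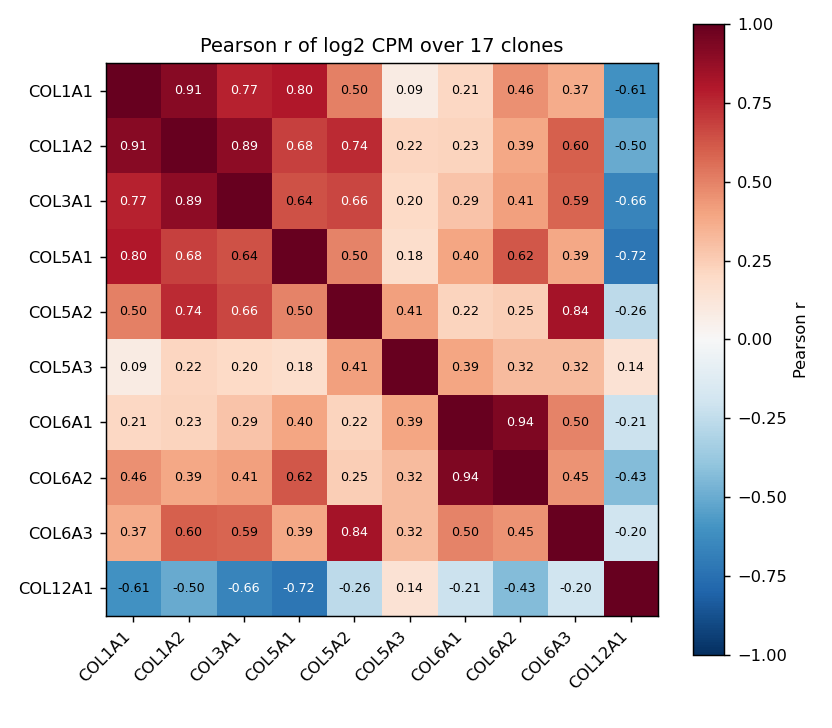
Each cell gives the Pearson r of log2 CPM between the gene of its row and the gene of its column over the 17 clones, on a colour scale from -1 (blue) to 1 (red). COL1A1, COL1A2 and COL3A1 form a block, with which COL5A1 has r of 0.80, 0.68 and 0.64, and COL5A2 0.50, 0.74 and 0.66. COL5A2 is closest to COL6A3 (0.84), COL6A1 to COL6A2 (0.94), and COL12A1 is negative with 8 of the other 9 genes.

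Over all 17 clones, COL12A1 was the gene that went the other way. With COL1A1 its r was -0.608 (permutation p = 0.0146, rho = -0.407, p = 0.106, r = -0.485 without L and N) and its slope -0.57 log2 units (SE 0.15, edgeR adjusted p = 0.0114), and 7.23% of 10349 genes had a lower r with COL1A1. With COL5A1 the r was -0.723 (permutation p = 0.00216, rho = -0.578, p = 0.0164, r = -0.744 without L and N, edgeR adjusted p = 0.00784), and 1.43% of 10349 genes had a lower r with COL5A1. With the roles exchanged, edgeR's adjusted p was 0.181 for COL1A1 fitted on COL12A1 and 0.0451 for COL5A1. These relations rest on clones M and N, the lowest and the highest for COL12A1. Without clone N the r with COL1A1 was -0.292, and without both M and N it was -0.177 (permutation p = 0.537), while with COL5A1 it was -0.246 (permutation p = 0.376). Without both clones the r of COL12A1 turned positive with COL5A2 (0.425, permutation p = 0.114), COL6A3 (0.135) and COL1A2 (0.0476). It stayed negative with COL1A1, COL3A1, COL5A1, COL6A1 and COL6A2. With M and N left out, edgeR called 0 of 9 members on COL12A1 (0 at an unadjusted p under 0.05) and 0 of 9 on COL5A1 (2 at an unadjusted p under 0.05), where all 17 clones had given 2 and 4. No gene at all was called on either in that setting (0 of 10256), with 10.7% of genes at an unadjusted p under 0.05 on COL12A1 and 9.37% on COL5A1, so the loss was not particular to the collagen genes.

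**Figure D4:**
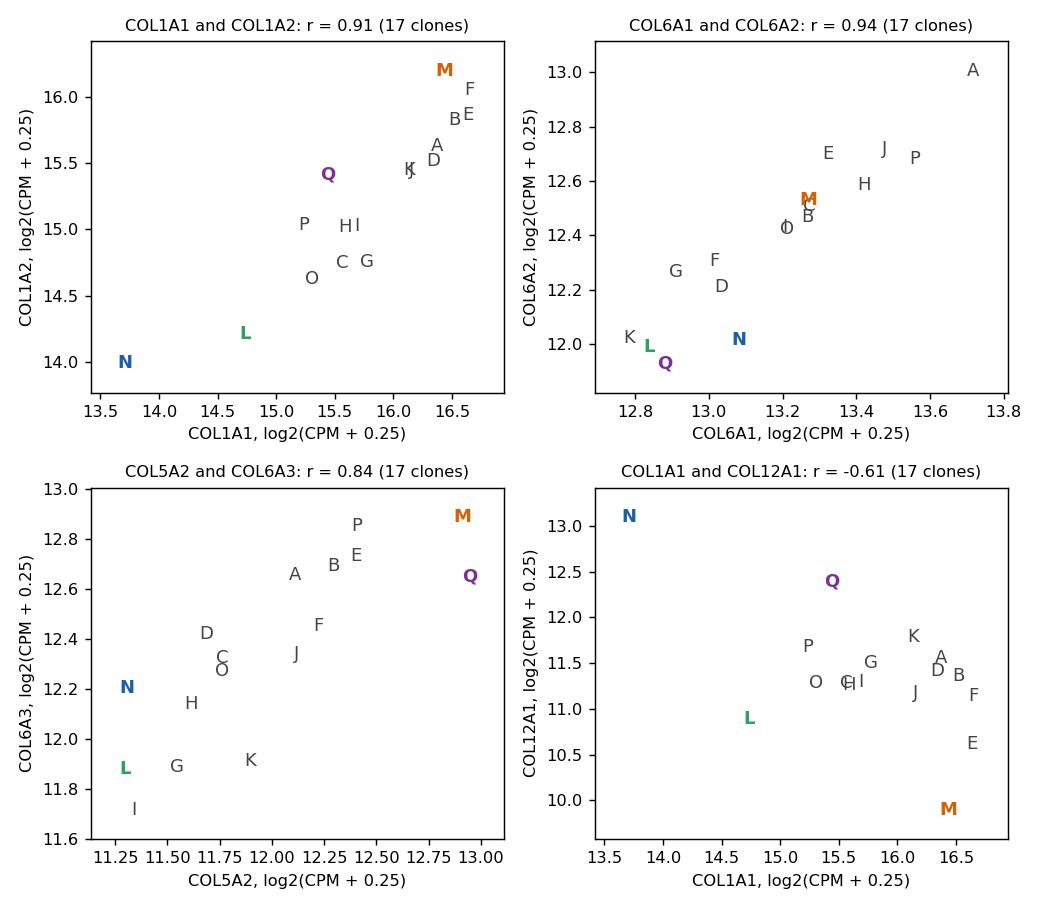
Letters are the 17 clones, with log2(CPM + 0.25) of 1 gene on each axis. COL1A1 with COL1A2 (r = 0.91), COL6A1 with COL6A2 (0.94) and COL5A2 with COL6A3 (0.84) rise along the whole range. The fall of COL12A1 with COL1A1 (r = -0.61) rests on clone N at the top and clone M at the bottom.

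Many genes that modify, fold, trim and crosslink collagen chains rose with the fibril collagens. Of the 33 such genes in the files 31 were tested, and 13 rose and 2 fell with COL1A1, where 11.3% of all genes rose and 8.99% fell. Their median slope was 0.25 log2 units per log2 unit of COL1A1, against -0.01 over all genes tested. LOXL2, a lysyl oxidase that crosslinks collagen, rose by 0.90 (SE 0.09, edgeR adjusted p = 2.05e-05) and spanned 295 to 2127 CPM over the clones. SERPINH1, the collagen chaperone, rose by 0.59 (SE 0.10, adjusted p = 0.000919), P4HA2, a prolyl hydroxylase, by 0.54 (SE 0.11, adjusted p = 0.00267), and ADAMTS2, which removes the amino-terminal propeptide, by 0.49 (SE 0.09, adjusted p = 0.0012), all in edgeR. PPIB, an isomerase that acts on proline bonds, and LOX, another lysyl oxidase, rose by 0.34 (SE 0.06) and 0.40 (SE 0.10). Without clones M and N, 7 rose and 1 fell where 25.9% of all genes were called in either direction. The count of calls in either direction was then at the background, and the share of all genes rising was not computed. In that setting 22 of the 31 slopes were positive, with a median of 0.22 against -0.004 over all genes tested. With library totals in place of TMM, 8 rose and 5 fell where 30.4% of all genes were called in either direction. On COL1A2 the counts were 13 up and 3 down, and on COL3A1 11 up and 1 down, with 13.4% and 7.4% of all genes rising.

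Genes of the same list also rose with COL5A1, COL5A2 and COL6A3. On COL5A1, 9 rose and 0 fell (3.23% of all genes rose), led by SERPINH1 (slope 0.87, SE 0.10, edgeR adjusted p = 0.000654), P4HA2 (0.82, SE 0.11) and CREB3L1 (1.07, SE 0.17), a transcription factor of secretory cells. Without M and N, 0 of 31 were called on COL5A1 in edgeR, 9 had an unadjusted p under 0.05, and the median slope was 0.41. In that setting 0 of 10256 genes were called on COL5A1 and 9.37% had an unadjusted p under 0.05. On COL5A2, 7 rose and 0 fell (1.66% of all genes rose), led by PLOD1 (0.88, SE 0.12, edgeR adjusted p = 0.00178), a lysyl hydroxylase, and P4HA1 (0.94, SE 0.13, adjusted p = 0.00178), a prolyl hydroxylase. The count on COL5A2 was again 7 without M and N (7.67% of all genes called in either direction), and 4 with library totals (1.11% called in either direction). On COL6A3, 6 rose and 0 fell (0.338% of all genes rose), with PLOD1 (1.21, SE 0.19) and P4HA1 (1.30, SE 0.21) leading there too. On COL6A1, COL6A2 and COL5A3 edgeR called 0 of 31, with 4, 12 and 3 at an unadjusted p under 0.05, where 8.7%, 15.1% and 9.44% of all genes had such a p. On COL12A1, 1 rose (ADAMTS3) and 3 fell (ADAMTS2, P4HA2 and CREB3L1), against 1.38% of all genes rising and 0.609% falling, and 0 were called without M and N, with 6 at an unadjusted p under 0.05.

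Among fibril partners and receptors, SPARC, a calcium-binding protein that binds collagen, rose with COL1A2 almost 1 for 1 (slope 1.0, SE 0.08, edgeR adjusted p = 2.8e-06) and spanned 7054 to 39298 CPM. ITGA11, the alpha subunit of a collagen I receptor on fibroblasts, rose with it by 1.07 (SE 0.17, adjusted p = 0.000316), and FBN1, the microfibril protein fibrillin, by 0.72 (SE 0.16, adjusted p = 0.00258), both in edgeR. These genes do not stand for the list. On COL1A2, 6 of its 24 tested genes rose and 2 fell, against 13.4% and 14% of all genes. On COL1A1, 4 rose and 3 fell, the latter being ITGA10, PRELP and THBS2, against 11.3% and 8.99% of all genes. On COL5A1, 3 rose and 1 fell, against 3.23% and 3.8% of all genes. The list rose more clearly on COL5A2, where 6 rose and 0 fell, against 1.66% and 2.02%. It was again 6 and 0 there without clones M and N (7.67% of all genes called in either direction). With library totals 0 were called on COL5A2 (1.11% called in either direction). Of the 34 other collagen genes in the files 12 passed the filter for slopes, and 0 rose and 2 fell with COL1A1, 0 rose and 3 fell with COL1A2, 1 rose and 0 fell with COL5A2, and 1 rose and 0 fell with COL12A1. COL14A1, which like COL12A1 encodes a collagen of the fibril surface, rose with COL12A1 (1.21, SE 0.20, edgeR adjusted p = 0.00535, not called without clones M and N) and fell with COL1A1 (-1.08, SE 0.22, adjusted p = 0.00221). COL2A1, the chain of cartilage collagen II, fell with COL1A2 (-2.56, SE 0.78, edgeR adjusted p = 0.0207) and spanned 16.7 to 1221 CPM. COL11A1, which takes the place of collagen V in cartilage fibrils, rose with COL5A2 (0.80, SE 0.15, edgeR adjusted p = 0.0147).

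For 5 of the genes, the 5 other genes with the highest Pearson r over the 17 clones were looked up among all genes that passed the filter, as a description with no test. Closest to COL1A1 were GCGR (the glucagon receptor, r = 0.963, though at most 9.20 CPM), HMOX2 (a haem oxygenase, 0.962), GPC4 (a glypican, 0.961), AARS (alanyl-tRNA synthetase, 0.95) and VDR (the vitamin D receptor, 0.941). Closest to COL3A1 were ACVR2A (an activin receptor, 0.918), EML4 (0.918), CPT2 (0.911), SLC2A8 (a glucose transporter, 0.907) and FTO (0.896). Closest to COL5A1 were SERPINH1 (0.948) and P4HA2 (0.910), both of the collagen processing list, then DDOST (0.896) and GANAB (0.881), which act on N-glycans in the endoplasmic reticulum, and NCAM1 (an adhesion molecule, 0.896). COL6A1 had weaker company beyond COL6A2: TNC (tenascin C, 0.820), PYGB (0.806), CORO1B (0.789), GALNS (0.789) and HSD3B7 (0.782). Closest to COL12A1 were ARSI (an arylsulfatase, 0.902), MBNL1 (a splicing regulator, 0.848), C8H9orf3 (0.847), RASSF5 (0.840) and CDON (0.840). Without clones M and N the r stayed between 0.894 and 0.936 for the 5 genes of COL1A1, while for those of COL12A1 it was 0.834 for ARSI and between 0.534 and 0.659 for the others. For those of COL5A1 it was then 0.867 for SERPINH1, 0.763 for P4HA2 and between 0.715 and 0.735 for the others. It lay between 0.842 and 0.923 for the genes of COL3A1 and between 0.821 and 0.849 for those of COL6A1.

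Whether the collagen genes moved with other programmes of the clones was asked with 6 list scores, each the mean standardised level of a list of genes in a clone, scaled to an SD of 1. A gene entered its score with a level above 1 CPM in at least 1 clone, and all genes had equal weight. Genes with few reads, also in the cartilage score, thus counted as much as abundant ones, and their part was not tested. Of 60 fits of a collagen gene on a score, 7 passed in edgeR. The cell cycle score, from 26 replication and mitosis genes, was lowest in clone M (-1.57) and highest in clone O (1.65). On it 5 of 10 collagen genes were called and all 5 fell, in a fit where 39.2% of all genes were called and 19.8% fell. COL3A1 fell by 0.76 log2 units per SD of the score (SE 0.14, edgeR adjusted p = 0.000382), COL1A2 by 0.49 (SE 0.10, adjusted p = 0.000723), COL1A1 by 0.40 (SE 0.14, adjusted p = 0.0337), COL5A2 by 0.34 (SE 0.10, adjusted p = 0.00879) and COL6A3 by 0.22 (SE 0.08, adjusted p = 0.0286). The 4 clones with scores above 1, C, G, L and O, were all below the median clone for COL1A2 and COL3A1, whereas clone N, the lowest for both genes, had a score of -0.21. COL6A1 (-0.05, SE 0.07, adjusted p = 0.645), COL6A2 (-0.05, SE 0.08) and COL12A1 (-0.04, SE 0.19, adjusted p = 0.887) did not pass. The COL1A1 and COL6A3 calls were the least firm: COL1A1 was not called with limma (adjusted p = 0.126) or without clone B, E, L, M or O, and COL6A3 not with library totals (adjusted p = 0.129) or without clone G, L or M.

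On the contractile score, from 16 smooth muscle genes such as ACTA2 and MYLK, 1 of 10 collagen genes was called, against 13.5% of all genes: COL1A1 rose by 0.50 log2 units per SD (SE 0.14, edgeR adjusted p = 0.0229). With library totals its slope was 0.36 (adjusted p = 0.0887), and it was not called without clone E or F. The score was lowest in clone Q (-1.77) and highest in clone K (1.49). On the cartilage score, from 17 genes such as ACAN and SOX9, 1 of 10 was called, against 9.69% of all genes: COL12A1 rose by 0.49 (SE 0.11, edgeR adjusted p = 0.00801). The highest scores were those of clones Q (2.10), N (1.73) and P (1.53), and the first 2 were also the highest for COL12A1. Without clone N the slope was 0.31 (adjusted p = 0.0754), and without M and N 0.30 (adjusted p = 0.0263). On the TGF-beta response score 0 of 10 were called in edgeR (2 at an unadjusted p under 0.05, as had 27.2% of all genes), against 0.329% of all genes called, and 0 with limma (0 unadjusted). On the osteoblast score 0 of 10 were called (4 at an unadjusted p under 0.05, as had 8.37% of all genes), against 0.0387% called, and 0 with limma (4 unadjusted). On the adipocyte score 0 of 10 were called (0 unadjusted), against 0% of all genes, and 0 with limma (0 unadjusted).

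**Figure D5:**
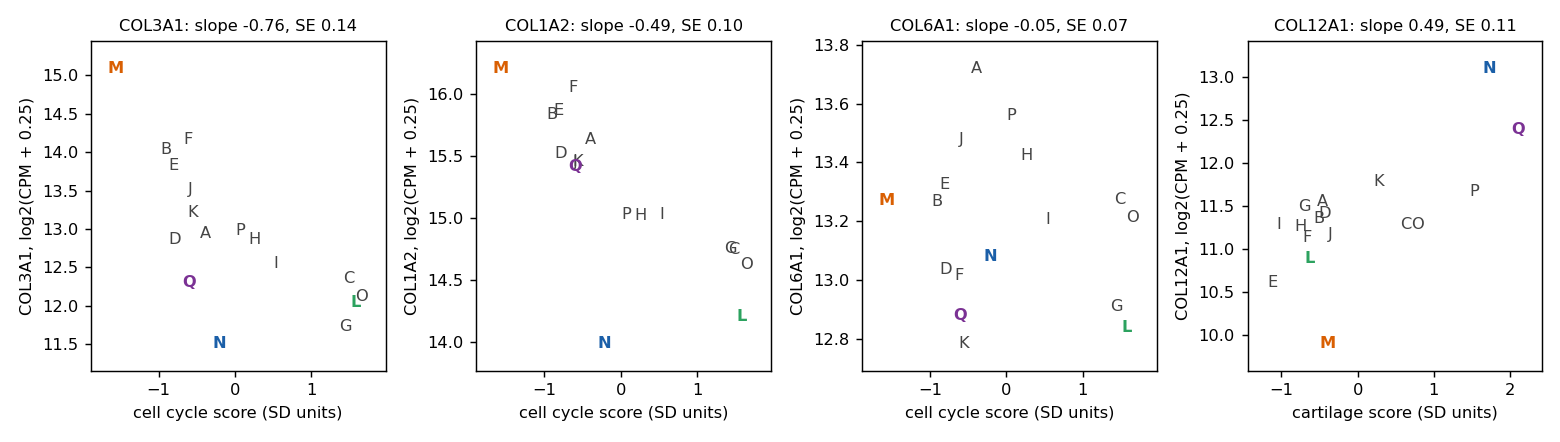
Letters are the 17 clones, with a list score in SD units on the x axis and log2(CPM + 0.25) of a collagen gene on the y axis. COL3A1 (slope -0.76) and COL1A2 (-0.49) fall as the cell cycle score rises, with clone N below the trend, COL6A1 (-0.05) does not follow it, and COL12A1 rises with the cartilage score (0.49) through clones N and Q.

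The collagen levels also moved with one property of the libraries. Per SD of the percent of reads outside genes, COL1A1 fell by 0.69 log2 units (SE 0.11, edgeR adjusted p = 0.00153), and COL1A2, COL3A1, COL5A1 and COL6A2 fell too, while COL12A1 rose by 0.42 (SE 0.12, adjusted p = 0.0278). That is 6 of 10 collagen genes, against 13.7% of all genes, and without clones M and N it was COL1A1 alone (-0.44, adjusted p = 0.0387), with 472 genes called in all. Collagen reads themselves lower this percent, since they lie in genes. With the percent taken among reads not on the 10 genes, 1 of 10 was called, COL5A1 (-0.45, SE 0.10, adjusted p = 0.016, edgeR), against 6.61% of all genes, and 0 of 10 without clones M and N (3 at an unadjusted p under 0.05, COL5A1, COL6A1 and COL6A2), a setting in which 0 of all genes were called. On the number of reads on genes 0 of 10 were called in edgeR (2 at an unadjusted p under 0.05), against 0% of all genes. For these library measures the share of all genes at an unadjusted p under 0.05 was not computed. The 2 and 3 genes at such a p thus have no background beside them. The part of this property in the relations between the collagen genes was not tested.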

How the data were processed

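Per the labels, the authors aligned reads with STAR 2.3.0e and counted them per gene with HTSeq, and they deposited whole-number counts, 1 file per library, with no normalization. The study's methods give bosTau7 as the build. Counts of reads outside genes, ambiguous and otherwise unassigned were kept out of library sizes, and ambiguous reads were 0.164% to 0.192%. The 10 collagen genes and all gene lists were chosen with earlier results of these data known. Counts were scaled by TMM over the 18 libraries and tested with edgeR 4.0.16 (R 4.3.3) by the quasi-likelihood test, with filterByExpr and Benjamini-Hochberg adjustment over all genes tested. Tested were the heterogeneous library against the clones, each clone against the other 16, and slopes of all genes on the log2 CPM of a collagen gene or on list scores. Correlations over clones used permutation tests (100000 resamples, two-sided, scipy 1.17.1). P-values measure the spread between libraries, each clone having been sequenced once. Named genes were the 10 members, up to 6 called genes of lowest p per list and comparison, and the 5 nearest genes by r for 5 members. The scripts were checked on simulated counts. Alternatives were DESeq2 1.42.0 (test and size factors), limma 3.58.1, library totals, TMM without the members, no filter, a pseudocount of 1 and leaving out each clone. Leaving out clones M and N together, rank correlation, the percent outside genes among reads not on the members, and other normalizations for slopes on 4 members were added after seeing the data. A planned measure based on gene length was not run, since no transcript lengths were used here.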

Additional observations from a re-analysis of the deposited data

How the results depend on the processing

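The heterogeneous library against the clones gave 0 called collagen genes under every alternative run. The comparison of each clone with the others gave 0 calls, and 1 with library totals (COL12A1 in clone N). The set of 10 pairs held chains of the same molecule, and COL1A1 with COL3A1, COL5A1 and COL12A1. Of these, 7 had a permutation p under 0.05, including the negative pair of COL1A1 with COL12A1. Leaving out 1 clone gave a count of 4 to 8, the 4 being without clone N. It was also 4 without clones M and N together, 5 with rank correlation and 5 with library totals. The r of COL5A1 with COL5A3, 0.179 over all clones, ran from -0.0757 without clone L to 0.324 without clone N. The 7 called slopes on list scores became 5 to 8 when 1 clone was left out, 6 with limma, 6 with no filter, 9 with library totals and 7 without clones M and N, and COL1A1 on the cell cycle score had an adjusted p of 0.0644 with no filter. Where leaving out 1 clone cost COL1A1, COL6A3 or COL12A1 a call on a score, the adjusted p lay between 0.0512 and 0.0892. The causes of these changes were not tested. No paired analysis was possible because each clone is a group of its own with 1 library and the heterogeneous group has 1 library, so the groups share fewer than 2 replicate numbers. Depth limits COL5A3, with 7 to 271 reads in a clone, while the next lowest member, COL5A1, had at least 1812 reads in every clone.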

Other observations

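Genes of other programmes moved with COL1A1 across the 17 clones, where 11.3% of all genes rose and 8.99% fell. Of 26 cell cycle genes tested, 0 rose and 10 fell, with a median slope of -1.17 log2 units per log2 unit of COL1A1. All 26 had an unadjusted p under 0.05 in edgeR, as had 35.2% of all genes. The slope of COL1A1 on the cell cycle score was among the least firm calls. Of 16 contractile genes tested, 10 rose and 0 fell, with a median slope of 0.55 log2 units per log2 unit of COL1A1 against -0.01 over all genes. ACTA2, smooth muscle actin, rose by 1.18 (SE 0.24, edgeR adjusted p = 0.00231) and spanned 453 to 6016 CPM. Of 10 cartilage genes tested, 0 rose and 6 fell, with a median slope of -0.85. ACAN, the cartilage proteoglycan aggrecan, had a slope of -2.03 (SE 0.47, edgeR adjusted p = 0.0059) and spanned 18.4 to 2667 CPM, and SOX9, the chondrocyte transcription factor, had one of -1.06 (SE 0.21, adjusted p = 0.00218). Of 9 osteoblast genes tested, 4 rose and 1 fell, and SP7, an osteoblast transcription factor, rose by 1.19 (SE 0.29, edgeR adjusted p = 0.00795). These counts were not repeated without clones M and N.

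With COL12A1, 1.38% of all genes rose and 0.609% fell. Of 10 cartilage genes tested, 3 rose and 0 fell with it, of 11 adipocyte genes 1 rose and 0 fell, and of 16 contractile genes 0 rose and 1 fell. COMP, a cartilage and tendon matrix protein, rose by 2.66 log2 units per log2 unit of COL12A1 (SE 0.32, edgeR adjusted p = 0.000396) and spanned 0.139 to 49.5 CPM over the clones. SOX5, a chondrocyte transcription factor, rose by 0.61 (adjusted p = 0.0191) and HAPLN1, which links aggrecan to hyaluronan, by 1.25 (adjusted p = 0.0471), also in edgeR. FABP4, a fatty acid carrier of adipocytes, rose by 1.67 (edgeR adjusted p = 0.00911). Without clones M and N, edgeR called 0 of 10256 genes on COL12A1, with 10.7% at an unadjusted p under 0.05.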
